A study of Mus musculus with 12 samples.

Results

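The 7 genes described here encode secreted BMP antagonists (Nog, Chrd, Fst and Twsg1), the transmembrane pseudoreceptor Bambi and the inhibitory Smads Smad6 and Smad7. They were taken from the 21911 protein-coding genes of GENCODE M21 by name, for what they encode, and not by a measured value. A locus is the gene body with 100 kb to either side, and its members are all peak rows whose summit, the position of highest coverage in a peak, lies in that window on mm10. The 12 peak lists were searched this way, 8 from single replicates and 4 consensus lists. The DMSO consensus list of β-catenin placed 24 of its 16238 summits at these loci, and that of H3K27ac placed 72 of 31466.

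Forelimb buds came from wild-type Swiss Albino mouse embryos of E10.5 and were collected 6 h after exposure to C59 or to DMSO (wild-type control). The pregnant females were injected intraperitoneally. Controls received DMSO in PBS, whereas the C59 solution also held methylcellulose and Tween-20. C59 blocks porcupine, the enzyme that adds the lipid WNT ligands need for secretion. Chromatin of pooled forelimb buds was precipitated with antibodies against β-catenin, after an additional protein crosslink, or against H3K27ac, with 2 biological replicates per antibody and treatment. No group carried a transgene or a deletion. Because whole limb buds were used, a signal in fewer cells and a weaker signal per cell cannot be told apart.

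BMP ligands bind serine/threonine kinase receptors, which phosphorylate Smad1, Smad5 and Smad9, and these enter the nucleus with Smad4. Noggin, chordin and follistatin bind ligands outside the cell and keep them from the receptors. Smad6 and Smad7 act inside the cell on receptors and Smads, and their transcription is raised by BMP signalling itself, which makes them feedback inhibitors. BMP activity is needed in the limb bud for patterning, for interdigital cell death and for cartilage formation. β-Catenin is the transcriptional effector of canonical WNT signalling and reaches DNA through TCF/LEF proteins, whereas H3K27ac marks active promoters and enhancers.

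The sequences at 6 of the β-catenin summits of Nog, Chrd and Smad6 are shown, on the plus strand of mm10, because these summits lie in or next to the gene, are the strongest of their locus or hold a searched motif. Capitals mark a TCF/LEF core (ATCAAAG or TTCAAAG, which read CTTTGAT or CTTTGAA from the other strand) or the palindromic SMAD box GGCGCC. The windows of 200 bases are those searched for motifs, and 2 shorter windows without any of the searched words are shown beside them.
Nog, coding exon, chr11:89301583-89301782: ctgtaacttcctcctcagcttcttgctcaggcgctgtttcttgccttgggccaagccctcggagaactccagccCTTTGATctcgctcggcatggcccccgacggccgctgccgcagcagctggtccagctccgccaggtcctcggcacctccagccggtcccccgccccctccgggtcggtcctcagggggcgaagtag
Nog, 25.3 kb upstream, chr11:89327564-89327664: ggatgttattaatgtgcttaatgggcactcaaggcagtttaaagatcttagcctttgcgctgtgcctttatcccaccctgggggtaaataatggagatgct
Chrd, 32.8 kb upstream, chr16:20700273-20700472: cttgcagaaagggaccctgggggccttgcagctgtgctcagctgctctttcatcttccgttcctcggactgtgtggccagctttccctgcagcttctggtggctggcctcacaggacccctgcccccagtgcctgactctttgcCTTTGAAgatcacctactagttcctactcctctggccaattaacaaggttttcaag
Chrd, promoter, chr16:20732886-20733085: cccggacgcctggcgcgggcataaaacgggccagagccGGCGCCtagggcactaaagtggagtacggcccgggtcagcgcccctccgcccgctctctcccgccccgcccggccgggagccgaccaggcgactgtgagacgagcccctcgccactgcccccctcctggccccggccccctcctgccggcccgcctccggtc
Smad6, intron, chr9:63980595-63980794: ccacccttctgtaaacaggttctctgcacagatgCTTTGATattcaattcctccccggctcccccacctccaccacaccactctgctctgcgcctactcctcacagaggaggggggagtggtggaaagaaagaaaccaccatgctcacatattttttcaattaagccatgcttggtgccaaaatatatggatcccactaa
Smad6, intron, chr9:63960060-63960160: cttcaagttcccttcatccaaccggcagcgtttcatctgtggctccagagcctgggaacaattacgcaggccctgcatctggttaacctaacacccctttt

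The β-catenin libraries held 2.93 to 3.42 Gb of fragments and the H3K27ac libraries 5.03 to 5.93 Gb, as solved from the listed fold enrichments and p-values. The replicate lists of β-catenin fell from 20203 and 25836 summits in DMSO to 330 and 358 after C59, whereas those of H3K27ac held 33180 to 37935 in all 4 libraries. The threshold for listing moved as well, because the lowest listed −log10 p was 3.89 and 3.79 in the DMSO lists of β-catenin and 5.69 and 5.72 in the C59 lists. H3K27ac summits at promoters fitted limb mesenchyme but did not clearly separate forelimb from hindlimb. Tbx5 of the forelimb and the 5 limb mesenchyme genes examined had one in all 4 lists, and neither the 3 genes of red blood cells nor Sox10 of neural crest nor Alb and Neurod1 had one in any. Of the hindlimb genes, Pitx1 had no promoter summit and Tbx4 was listed. Between 1 and 2 of 5 ectoderm genes, 1 and 2 of 3 muscle precursor genes and 0 and 2 of 3 endothelial genes had one, depending on the list.

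β-Catenin summits were listed at 6 of the 7 loci in DMSO and at none after C59. With a window of 50 kb Fst had none in either treatment, and with a window of 250 kb Twsg1 had them too. In DMSO replicates 1 and 2, Smad7 had 8 and 9 summits, Smad6 had 7 and 9, Bambi had 6 and 7, Chrd had 5 and 7, Fst had 3 and 2, and Nog had 2 and 2. Twsg1, whose product binds BMPs together with chordin, had 0 in both. After C59 each of the 7 loci had 0 summits in both replicates. The totals over the 7 loci were therefore 31 and 36 in DMSO against 0 and 0 after C59. Both DMSO counts lay above both C59 counts at 6 of 7 loci. The same was true of 65.0% of all protein-coding loci, including those without any summit, and nothing particular to these genes is read from the count. For each of the 6 loci the exact two-sided permutation test gave p = 0.33, the smallest value that 2 against 2 libraries allow. The listing threshold differed between the lists, as given above. The DMSO values of 18 of the 24 consensus summits would have met the lowest −log10 p of the C59 lists in both replicates, whereas 6 would not have been listed at that level.

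**Figure D1:**
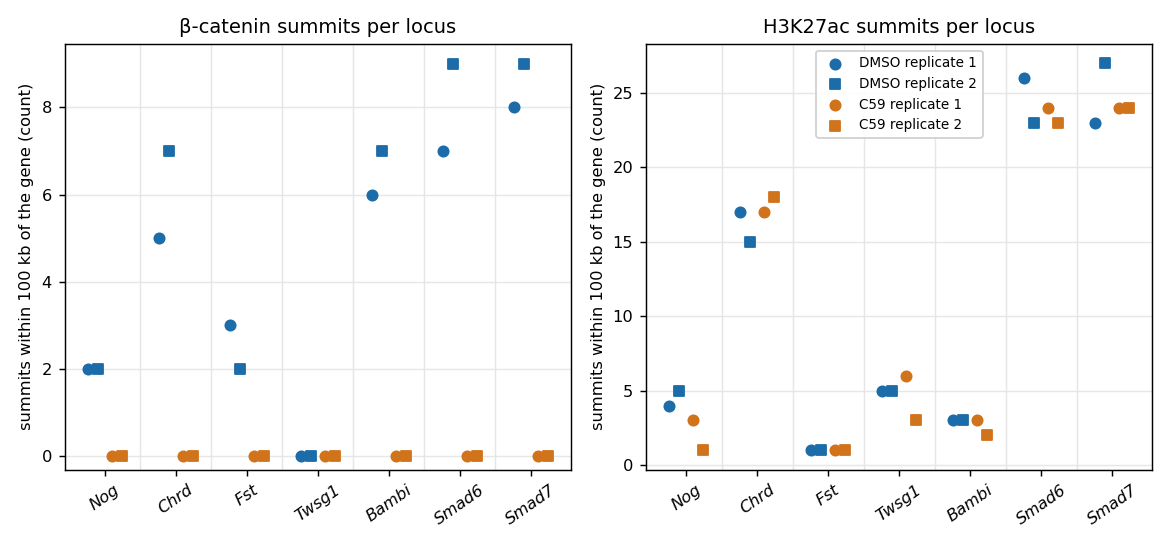
Number of β-catenin (left) and H3K27ac (right) summits within 100 kb of each gene in every replicate list, with DMSO in blue, C59 in orange, circles for replicate 1 and squares for replicate 2. β-Catenin is at 0 in both C59 lists of all 7 loci, whereas the H3K27ac counts of DMSO and C59 overlap or touch at every locus but Nog.

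The consensus list held 7 summits at Smad7, 6 at Smad6, 4 each at Bambi and Chrd, 2 at Nog, 1 at Fst and 0 at Twsg1, which turns the order of Fst and Nog around. Smad7 and Smad6 were not separated by their replicates, nor were Smad6 and Bambi, Bambi and Chrd, or Fst and Nog, since the counts of these neighbours overlapped or met. Chrd, with 5 and 7, stood clear of Fst, and Nog stood clear of Twsg1. A consensus summit was found at 58.8% of all protein-coding loci, with a median of 1 per locus, and at 6 of the 7 loci described here. Windows differ in length with the gene. Per 100 kb of window, Smad7 held 3.06 consensus summits, Smad6 2.23, Bambi 1.92, Chrd 1.91, Nog 0.99 and Fst 0.48, beside a median of 0.43 over all loci. These densities were higher than those of 98.7% of protein-coding loci for Smad7, 96.0% for Smad6, 94.0% for Bambi, 93.9% for Chrd, 81.2% for Nog and 60.2% for Fst. The nearest start site of a protein-coding gene was that of the member for 20 of the 24 summits, and the exceptions were 3 of the 4 Chrd summits and the single Fst summit.

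None of the 24 DMSO consensus summits lay in a C59 peak, neither in the C59 consensus list nor in that of either replicate. A count of 0 of 24 allows a share of up to 12.5% by the limit of 3 counts and of up to 13.8% by the Wilson interval, counting error only. Over the genome 1.12% of DMSO consensus summits lay inside a C59 consensus peak, and 2.30% inside a C59 peak of either replicate, and 0 of 24 cannot be told apart from these shares at this number of summits. A site at background coverage would have been listed after C59 only at a fold enrichment of at least 4.24 in replicate 1 and 4.26 in replicate 2. This level was 3.50 and 3.20 in DMSO.

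**Figure D2:**
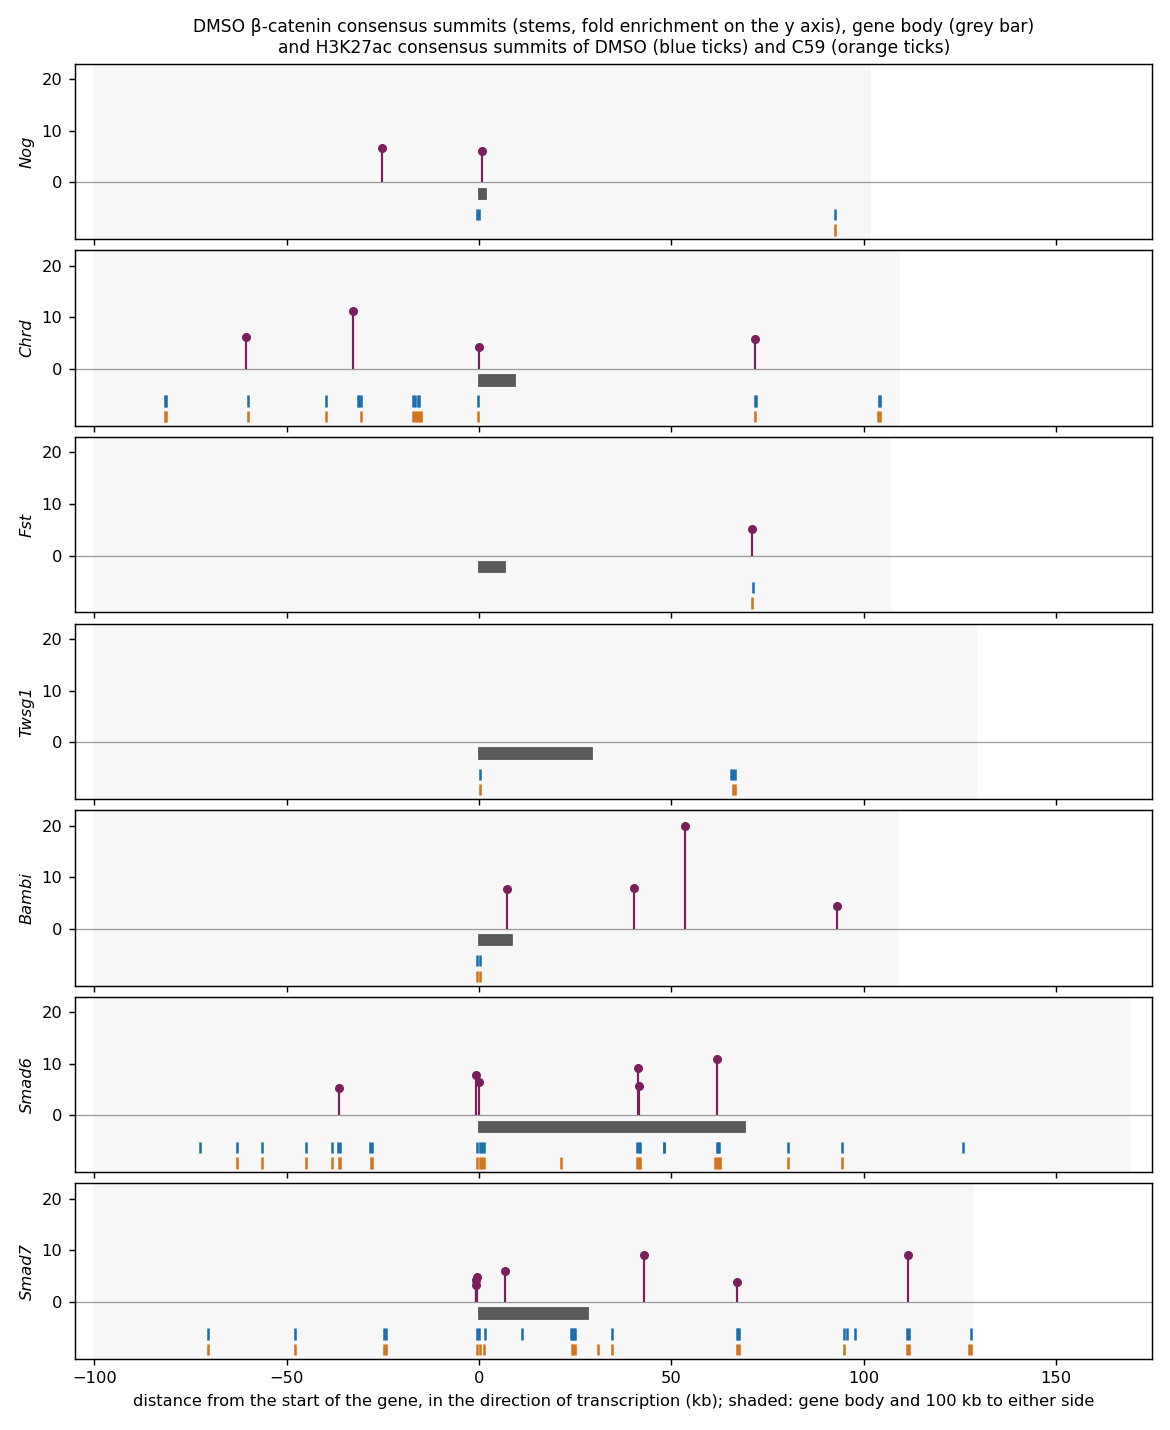
Map of each locus by distance from the start of the gene (kb), with the gene body as a grey bar, DMSO β-catenin consensus summits as stems whose height is the fold enrichment, and H3K27ac consensus summits as ticks (blue for DMSO, orange for C59). None of the 4 β-catenin summits of Bambi lies in a DMSO H3K27ac peak, whereas 4 of 6 of Smad6 and 5 of 7 of Smad7 do. Twsg1 has no stem.

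Nog (chr11:89300638-89302332, minus strand) encodes noggin, which binds BMPs directly. One of its 2 β-catenin summits lay in its coding exon, 0.65 kb after the start, with a fold enrichment of 5.85 in DMSO replicate 1 and 4.61 in replicate 2. The other lay in intergenic sequence 25.3 kb upstream and had 4.15 and 7.47. The replicates thus put the summits in opposite order, and neither summit of Nog was reliably the stronger. Neither lay in an H3K27ac peak, although the summit in the exon was 281 bp from the acetylated promoter region. Its window holds the core CTTTGAT, centred 23 bp from the summit.

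Chrd (chr16:20733127-20742384, plus strand) encodes chordin, which holds BMP ligands in an inactive complex. Its locus is crowded, with 8 other protein-coding genes in the window. The strongest of the 4 summits lay 32.8 kb upstream, in an intron of Fam131a, with a fold enrichment of 9.47 and 10.004. The summit at the promoter, 141 bp before the start of Chrd, was weaker, with 3.40 and 3.60, and was among those below the level listed after C59. Both replicates therefore ranked the distal summit above the promoter summit. The remaining summits lay at the start of Eif4g1, 60.5 kb upstream (4.54 and 6.26), and in intergenic sequence 71.8 kb downstream of the start (6.40 and 3.85). The promoter summit and the one at 71.8 kb lay inside H3K27ac peaks.

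Fst (chr13:114452290-114458951, minus strand) encodes follistatin, which binds activins and some BMPs. Its locus held 1 consensus summit, with 5.06 and 4.27, and this lay in a UTR of Ndufs4, 36 bp from the start of that gene and 70.9 kb from the start of Fst. No β-catenin summit was closer to a start of Fst than to any other protein-coding gene in the consensus list. Twsg1 (chr17:65921972-65951226, minus strand) had none, and the nearest consensus summit outside its window was 124.7 kb from the gene.

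Bambi (chr18:3507923-3516404, plus strand) encodes a receptor-like protein without a kinase domain. By fold enrichment it had the strongest β-catenin summit of all 7 loci, in intergenic sequence 53.6 kb after its start. The fold enrichment there was 16.3 and 17.99, from a coverage of 52 and 63 fragments. By coverage the replicates did not agree on this rank, as the strongest Smad6 summit had 30 and 65 fragments. The consensus fold enrichment of the Bambi summit, 19.9, exceeded that of 98.4% of all DMSO summits. The other consensus summits of Bambi lay in its UTR at 7.17 kb (4.73 and 8.32) and in intergenic sequence at 40.3 kb (7.01 and 7.47) and 93.0 kb (3.89 and 4.47). The replicates agree on which of them was highest by a wide margin. None of the 4 lay in an H3K27ac peak, and the strongest was 52.9 kb from the closest one. The edge of the window left out a further summit with a consensus fold enrichment of 20.6, which lay 100.1 kb from the gene, while the outermost summit inside, 84.5 kb away, had 4.42. Just outside the window of Smad7 a summit 102.5 kb from the gene had 11.7, beside 9.08 for the outermost inside at 83.0 kb. The nearest outside summit of Nog, 106.0 kb away, had 7.27.

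Smad6 (chr9:63953076-64022059, minus strand) encodes an inhibitory Smad that competes with Smad4 and blocks type I BMP receptors. Of its 6 summits, 4 lay inside the gene. The strongest was intronic, 61.9 kb after the start, with 7.70 and 12.4. A pair of neighbouring summits lay in the intron at 41.4 kb (7.47 and 9.75) and 41.6 kb (6.16 and 5.61). These 3 intronic summits lay inside H3K27ac peaks of both treatments. Around the start of the gene, the summits in the coding exon (4.77 and 6.34) and 0.90 kb upstream (5.98 and 8.12) lay outside the H3K27ac peaks, at 78 and 113 bp from the closest. The last summit, 36.4 kb upstream, had 3.77 and 4.82. It is the only Smad6 summit that did not reach the C59 listing level in both replicates.

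Smad7 (chr18:75367529-75395935, plus strand) encodes an inhibitory Smad that acts on both TGFβ and BMP receptors. Of its 7 summits, 3 lay between 0.50 and 0.89 kb before the start, with replicate values from 3.10 to 5.07, and 2 of them share the same replicate summit. All 3 lay in the acetylated promoter region. The intronic summit at 6.65 kb had 5.66 and 6.45 and holds 2 TCF/LEF cores. It lay 740 bp from another annotated start site of Smad7. The highest values were found at a distance, 43.0 kb after the start in intergenic sequence (7.70 and 9.0) and 111.4 kb after it in an intron of Ctif (6.82 and 8.40). A weak summit in a UTR of Ctif at 67.01 kb had 3.99 and 4.13. In fold enrichment the summits at 43.0 and 111.4 kb lay above every summit of the Smad7 promoter in both replicates. By coverage the summit at 111.4 kb had 19 fragments in replicate 1 and 27 in replicate 2. The promoter summit 0.50 kb before the start had 24 and 14.

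**Figure D3:**
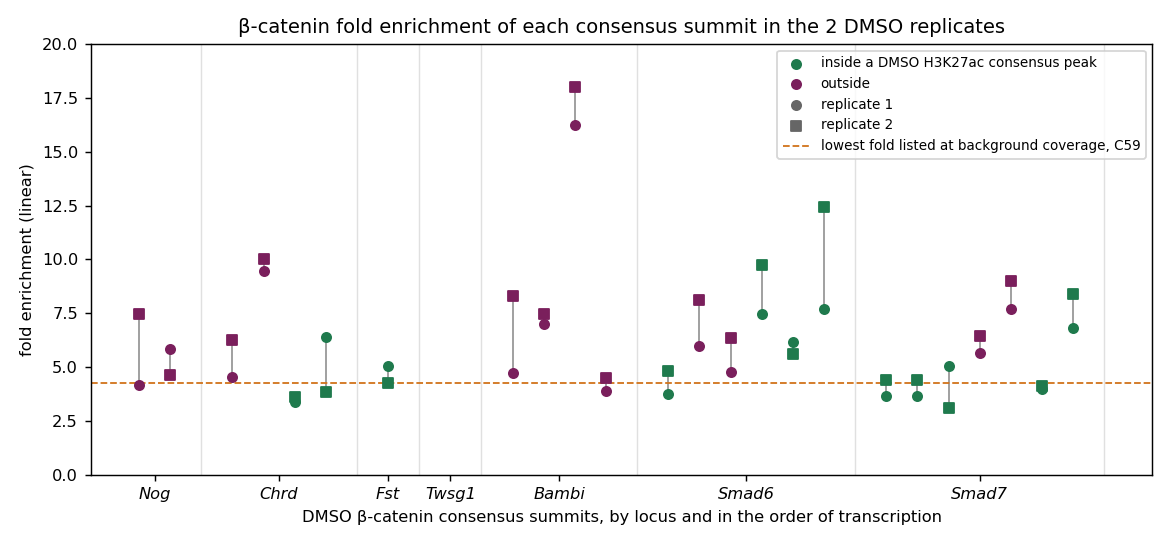
Fold enrichment (linear) of the 24 DMSO β-catenin consensus summits in DMSO replicate 1 (circles) and replicate 2 (squares), joined by a line, by locus, in green where the summit lies in a DMSO H3K27ac consensus peak. The dashed line is the lowest fold enrichment listed after C59 at background coverage, 4.26. The summit of Bambi at 16.3 and 17.99 stands above all others, and the promoter summits of Chrd and Smad7 lie near the line. A point below the line can still meet the lowest −log10 p of the C59 lists. The Smad7 promoter summit 0.89 kb before the start does (6.75 and 9.11), whereas that of Chrd does not (4.44 and 5.20).

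In strength, 9 of the 24 summits exceeded the median fold enrichment of 6.76 of all DMSO consensus summits. Their place differed between the loci. Inside DMSO H3K27ac consensus peaks were 12 of 24, or 50% (95% Wilson interval 31.4 to 68.6%), beside 22.1% of all DMSO summits. The 12 were 5 of Smad7, 4 of Smad6, 2 of Chrd and 1 at the Ndufs4 start, and none belonged to Nog or Bambi. Within 1 kb of a transcriptional start site (TSS) in the annotation, of any gene, were 10 of 24, or 41.7% (24.5 to 61.2%), beside 16.3% of all. For 8 of these the TSS was that of the member. The 24 summits were taken for lying within 100 kb of a gene, and the DMSO summits as a whole were not. Both comparisons are therefore not matched for distance to genes, and nothing particular to these genes is read from them. Summits of 1 locus are not independent, and an interval covers only the error of counting.

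A TCF/LEF core occurred in the 200 bp window of 7 of the 24 summits, or 29.2% (14.9 to 49.2%). This is close to the 28.6% of all 16193 DMSO summits of chromosomes 1 to 19, X and Y, and windows 2 kb to either side of those held it in 8.69%. By locus the core was present at 3 summits of Smad7, 2 of Chrd, and 1 each of Nog and Smad6, and at none of Bambi or Fst. The homeodomain word TAATTA was found at 3 summits, or 12.5% (4.34 to 31.0%), beside 14.8% of all summits and 6.98% of the flanking windows, and was present at 2 Smad7 summits and the strongest Bambi summit. The SMAD box was found at 1 summit, that at the Chrd promoter, or 4.17% (0.739 to 20.2%), beside 4.01% of all summits and 0.766% of the flanking windows. Every search covered both strands, and a match is a word in the window and not a measured binding site. In the RefSeq promoter windows that matched members by symbol (Chrd, Smad6 and Twsg1, 250 bases before to 50 after the start), the SMAD box occurred in 1 of 3, beside 11.9% of all such windows, and neither other word occurred.

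H3K27ac at the same loci changed far less. In DMSO replicates 1 and 2 and C59 replicates 1 and 2, in this order, Smad7 had 23, 27, 24 and 24 summits and Smad6 had 26, 23, 24 and 23. Chrd had 17, 15, 17 and 18. Twsg1 had 5, 5, 6 and 3, Bambi had 3, 3, 3 and 2, and Fst had 1 in every list. Only Nog, with 4 and 5 in DMSO and 3 and 1 after C59, had both C59 counts below both DMSO counts (1 of 7 loci, background 14.2%). None of the 7 had both C59 counts above (background 5.71%). The difference at Nog, a mean of 2.0 after C59 and 4.5 in DMSO, had an exact two-sided permutation p of 0.33, the lowest possible. The totals over the 7 loci were 79 and 79 in DMSO and 78 and 72 after C59.

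In acetylation the loci fell into 3 with many summits and 4 with few. Smad7, Smad6 and Chrd held 9.63, 8.92 and 7.65 DMSO consensus summits per 100 kb, higher than 96.9%, 95.8% and 93.1% of protein-coding loci, whereas Twsg1, Nog, Bambi and Fst held 1.74, 1.49, 0.96 and 0.48, all below the median of 2.09. Smad7 and Smad6 were not separated by their DMSO replicates, and Chrd stood below both. The high count of Chrd belongs mostly to its neighbours, because 1 of its 16 DMSO consensus summits had the Chrd start as the nearest start of a protein-coding gene. This number was 22 of 22 at Smad7, 21 of 24 at Smad6, 3 of 3 at Nog, 2 of 2 at Bambi, 1 of 4 at Twsg1 and 0 of 1 at Fst. Both H3K27ac consensus summits of Bambi lay at its promoter, while both DMSO replicates and C59 replicate 1 each listed 1 further summit in its window.

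Of the 72 DMSO consensus summits of H3K27ac at the 7 loci, 62 lay inside a C59 consensus peak, or 86.1% (76.3 to 92.3%), beside 89.1% of all. Conversely 60 of the 62 C59 summits, or 96.8% (89.0 to 99.1%), lay inside a DMSO peak, beside 90.9%. The 10 that were not inside a C59 peak were 4 of Smad6, 3 of Smad7, 2 of Nog and 1 of Chrd. The 2 C59 summits outside DMSO peaks, named after their values were seen, lay in an intron of Smad6 at 21.4 kb (consensus fold enrichment 2.57) and 30.9 kb after the start of Smad7 in intergenic sequence (3.17). The acetylated length overlapped between the treatments at Smad7, with 10.1 and 10.9 kb in DMSO and 10.4 and 9.12 kb after C59. At Smad6 both C59 values lay below both DMSO values, with 10.6 and 10.9 kb in DMSO and 9.69 and 9.52 kb after C59. The same was true of Nog, with 1.22 and 1.301 kb in DMSO and 0.884 and 0.192 kb after C59. The share of all loci with such a difference was not determined, and nothing particular to these genes is read from it.

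The promoters, taken as the highest H3K27ac summit less than 1 kb from a TSS of the gene, separated the members further. Twsg1 had the highest fold enrichment, with 19.7 and 20.9 in DMSO and 21.9 and 21.3 after C59. No β-catenin summit was listed within 100 kb of it. By coverage at the same summits Smad7 stood above Twsg1, with 361 and 365 fragments in DMSO and 531 and 416 after C59. Twsg1 had 204 and 282 in DMSO and 291 and 238 after C59. Fst was at the other end, with no promoter summit in any list. The Nog promoter had 5.79 and 3.84 in DMSO and 3.83 in C59 replicate 1, and was not listed in C59 replicate 2. It is therefore one of the 3.36% of promoters with a DMSO consensus summit and no C59 consensus summit. This rests on C59 replicate 2, whose H3K27ac list is the shortest of the 4, as the value of C59 replicate 1 was close to that of DMSO replicate 2.

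**Figure D4:**
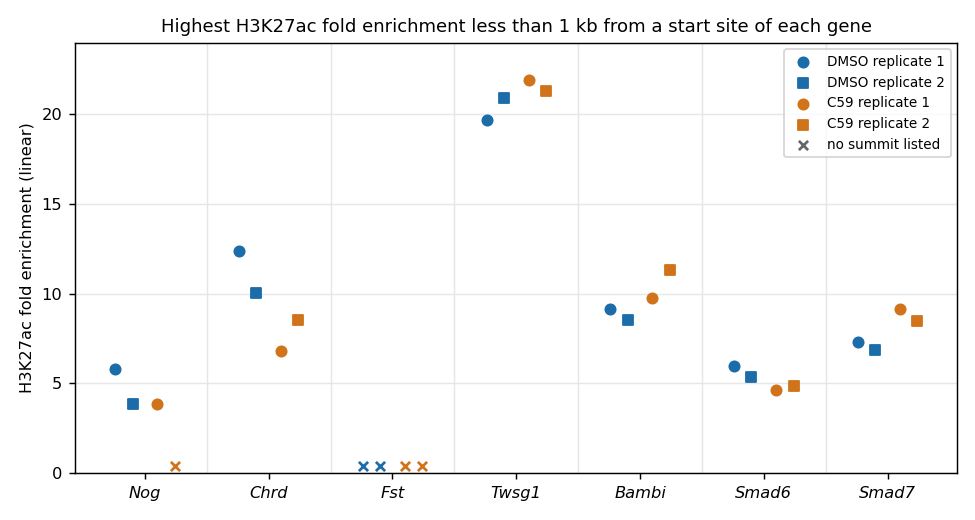
Highest H3K27ac fold enrichment (linear) less than 1 kb from a start site of each gene in DMSO (blue) and C59 (orange), with circles for replicate 1, squares for replicate 2 and a cross where no summit was listed. Chrd and Smad6 are lower after C59, Twsg1, Bambi and Smad7 are higher, and the Nog promoter is missing from C59 replicate 2. With summits less than 500 bp from a start site, the directions of Smad6 and Smad7 reverse, as does that of Smad6 with the sum over summits and that of Twsg1 with coverage over background.

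Of the 5 members with a promoter summit in all 4 lists, 2 had both C59 values below both DMSO values (background 19.7% of 11091 promoters) and 3 had both above (background 20.9%). At Chrd the values were 12.4 and 10.04 in DMSO (11.2 ± 1.65, SD, n = 2) and 6.80 and 8.56 after C59 (7.68 ± 1.24), a log2 ratio of −0.55, and 1.18% of promoters had a lower one. With the sum over the promoter summits the log2 ratio of Chrd was −0.18 and the treatments overlapped (exact permutation p = 0.67). At Smad7 the 7.33 and 6.84 of DMSO (7.08 ± 0.345) stood beside 9.14 and 8.45 after C59 (8.79 ± 0.485), a log2 ratio of 0.31, which was higher than that of 97.0% of promoters. The inhibitory Smads thus moved in opposite directions by this measure, as Smad6 had 5.98 and 5.33 in DMSO (5.65 ± 0.459) and 4.60 and 4.87 after C59 (4.74 ± 0.189), a log2 ratio of −0.25. That contrast depends on which summit is taken. With summits less than 500 bp from a TSS, the log2 ratio of Smad6 was 0.23 and that of Smad7 −0.10, and with the sum over the promoter summits that of Smad6 was 0.04. Bambi had 9.12 and 8.52 in DMSO (8.82 ± 0.428) and 9.74 and 11.3 after C59 (10.53 ± 1.12), a log2 ratio of 0.26. It was 0.16 with coverage over the library background, where the treatments overlapped (exact permutation p = 0.67), 0.16 with the sum over the promoter summits and 0.14 without C59 replicate 2. For Twsg1 the log2 ratio was 0.09, and −0.02 when coverage over the library background was used. Each of these 5 differences had an exact two-sided permutation p of 0.33 with n = 2 per group, the lowest possible. The median log2 ratio was 0.09 over the 5 members and 0.00062 over all promoters.

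The other 36 genes of the BMP pathway that were examined were counted in the same way. Of these, 32 had a DMSO consensus summit (58.8% of all protein-coding loci), 34 had both DMSO counts above both C59 counts (65.0% of all), and none had a consensus summit after C59. Their median was 2 summits per locus, beside 4 for the 7 members, and the counts ran from 0 at Bmpr2, Acvr2a, Acvr2b and Fstl3 to 12 at the receptor gene Bmpr1b and the BMP target Msx1. By role, the 7 ligand genes had a median of 3, the 6 receptor genes 0.5, the 4 Smad genes 2, the 13 other antagonists and negative modulators 2 and the 6 targets 5. Grem1, which encodes the antagonist gremlin, had 6 and 6 summits in DMSO and 0 and 1 after C59, the only listed summit after C59 in this list. For promoter H3K27ac, 5 of 24 genes with a promoter summit in all 4 lists were lower after C59 and 11 were higher, beside 19.7% and 20.9% of all promoters. Among the other antagonists and negative modulators these numbers were 4 (Bmper, Nbl1, Smurf1 and Skil) and 1 (Fstl1) of 8, and the fifth lower promoter was that of Bmpr1b. The log2 ratio was −0.76 at Bmper and −0.65 at Nbl1, both below the −0.55 of Chrd. Of 11 WNT feedback genes, 10 had a DMSO consensus summit, and Axin2 alone kept summits after C59, 3 in each replicate beside 12 and 13 in DMSO.

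Genes with the most similar profile were sought among these lists, by the Euclidean distance of log2(summits + 1) over the 8 replicate lists. Smad7 was closest to Id1, which encodes an inhibitor of differentiation and is a BMP target, at a distance of 0.48, and Smad6 was also closest to Id1, at 0.57. Id1 had 7 and 7 β-catenin summits in DMSO, 0 and 0 after C59, and 19 to 26 H3K27ac summits. Chrd was closest to Skil at 0.76, Fst to Gdf6 at 0.93, Twsg1 to the receptor gene Acvr2a at 1.24, Nog to Bmp2 at 1.299 and Bambi to the antagonist gene Nbl1 at 1.32. All other members thus had less similar neighbours than the inhibitory Smads. At loci with few summits these distances rest on small counts. The members were not searched as neighbours of each other.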

How the data were processed

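β-Catenin and H3K27ac ChIP-seq of forelimb buds was read from 8 replicate lists and 4 consensus lists. The 4 input samples were not used here. The authors aligned the reads to mm10 with Bowtie2 2.4.5, discarded those of mapping quality below 30 and ran macs2 2.2.7.1 without input. For the consensus lists they removed duplicates with Picard 2.27.4, subsampled to the smaller replicate, called peaks on both replicates and kept summits lying in peaks of both. Each deposited row gives a fold enrichment, a ratio of coverage to what macs2 expected there, with a −log10 p-value and a −log10 q-value. The consensus values stand for both replicates pooled.

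Summits within 100 kb of each gene (GENCODE M21, GRCm38, with 0 peaks past a chromosome end) were counted per list. A fold enrichment over the local expectation is relative, so that a change in total signal is not measured, and the absence of a row does not show the absence of a signal. Coverage and depth were solved from the enrichment and p of the rows. DMSO and C59 were compared per locus with exact two-sided permutation tests. Neither a cutoff on the q-value nor a filter was added, and the blacklist was not used here. Shares have Wilson intervals (95%). The members, lists, tests and alternatives were chosen with earlier results of these data known. The genes named were all 7 members, the highest and lowest genes of each list and the most similar genes. Grem1 and the pathway genes named for their promoters were chosen after their values were seen. The alternatives were other windows, thresholds and summit definitions, each replicate left out, and a replicate block. The solving of coverage, the window counts, the placement of summits in peaks, the comparison of replicate ranges and the motif search were checked against simulated data. The other calculations were not. The work used scipy 1.17.1, numpy 2.4.6 and pandas 2.3.3 under Python 3.11.15, and samtools 1.23.1.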

Additional observations from a re-analysis of the deposited data

How the results depend on the processing

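The 24 DMSO β-catenin summits at the 7 loci numbered 18 to 36 under the alternatives, and none lay in a C59 peak under any of those tried, including windows of 50 and 250 kb, a peak of either replicate and each C59 replicate alone. The count was 18 at a fold enrichment of at least 5 and also at the C59 listing level, an alternative chosen after seeing the data. H3K27ac counts depended on the definition. The 72 DMSO and 62 C59 summits became 118 and 113 with a window of 250 kb, 31 and 26 at a fold enrichment of at least 5, and 46 and 41 when peak regions were counted. The share of summits with a TCF/LEF core was 16.7% with a window of 100 bp, 50% with a window of 400 bp and 12.5% with ATCAAAG alone. Shares over all summits and flanking windows were not computed at these settings, so no enrichment is read from them.

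The summed H3K27ac difference of C59 minus DMSO, −4.0 summits over the 7 loci, was −1.5 with a window of 50 kb and −1.04 after division by the list totals, and ranged from −7.0 without C59 replicate 1 to −1.0 without C59 replicate 2. It reversed for single genes with a window of 250 kb (Twsg1 0.5, Bambi 0.5) and of 50 kb (Smad6 0.5), after division by list totals (Smad7 0.071), and when 1 library was left out (Twsg1 1.0 without C59 replicate 2 in a range from −2.0, Smad6 0.5 without DMSO replicate 1 from −2.5, Smad7 1.0 without DMSO replicate 2 from −3.0). For the promoters, the log2 ratio reversed for Twsg1, and so did the median of the 5 members, with coverage over background (−0.016 for both), for Smad6 with summits less than 500 bp from a TSS (0.23) and with the sum over summits (0.042), and for Smad7 with summits less than 500 bp from a TSS (−0.10). The median ranged from 0.045 to 0.13 when 1 replicate was left out. The cause of these changes was not tested.

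The labels number replicates alike but do not pair them, and the correlation of replicate deviations between DMSO and C59 was 0.018 for promoter H3K27ac over 11091 genes, −0.041 for H3K27ac counts and −0.0045 for β-catenin counts. With the replicate block the summed differences were 33.5 for β-catenin and −4.0 for H3K27ac and the median promoter log2 ratio was 0.089. These sums and the median were not tested. The single loci and promoters had p of at least 0.50 by exact permutation within pairs, the smallest that 2 pairs allow.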

Other observations

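Summits listed in 1 DMSO replicate but outside the consensus peaks added to the picture of single genes. At Bambi, replicate 1 had a β-catenin summit 0.13 kb before the start (fold enrichment 4.72) and another 58.7 kb after it (7.40), whereas replicate 2 had summits 8.75 kb before the start (6.999) and in the intron at 1.34 kb (5.11). At Chrd, replicate 2 had an intronic summit 0.67 kb after the start (4.59). At Smad6, replicate 2 had a summit 53.0 kb upstream with a fold enrichment of 7.45, higher than several consensus summits of that locus. At Smad7, replicate 2 had one in the intron at 25.1 kb (5.49), and replicate 1 had one in the UTR 0.21 kb after the start (3.25). None of these was listed in the other replicate. In total, Bambi had 2 such summits in replicate 1 and 3 in replicate 2, Chrd, Smad6 and Smad7 had 1 and 3 each, Fst had 2 and 1, and Nog and Twsg1 had none. Those of Fst lay 78.7 and 66.3 kb after its start in replicate 1 and 58.3 kb after it in replicate 2.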
